A study of Mus musculus with 4 samples.

Results

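The genes described here are 10 genes of lymph node structure and lymphocyte homing, namely *Ccl19*, *Ccl21a*, *Cxcl13*, *Ccr7*, *Cxcr5*, *Ltb*, *Cr2*, *Fcer2a*, *Glycam1* and *Chst4*. They were taken by symbol, with no threshold on their values, from a table of 19030 genes, and all 10 were found. RNA sequencing (RNA-seq) was done on ingWAT, the inguinal white adipose tissue, which lies under the skin and surrounds the inguinal lymph node. The tissue came from C57BL/6 mice, 3 months old and kept at 4°C. The methods give the cold protocol as 1 week at 16°C and then 3 weeks at 4°C, in male mice. Both groups carried *Oct3* fl/fl alleles. The control (Ctrl) mice had no Cre, and the knockout (cKO) mice had Adiponectin-Cre, a transgene driven by an adipocyte promoter, which was used to delete *Oct3* (*Slc22a3*, an organic cation transporter that takes up norepinephrine) in adipocytes. Each genotype had 2 libraries. The number of mice in each library, and whether the lymph node was dissected away from the fat, are not given in the sources used here, and p-values measure the spread between these libraries only.

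A lymph node is divided into a T cell zone and B cell follicles, and chemokines made by its stromal cells hold that division. CCL19 and CCL21 draw T cells and dendritic cells that carry the receptor CCR7, whereas CXCL13 draws B cells that carry CXCR5 into follicles. Lymphotoxin on the surface of lymphocytes signals to stromal cells and sustains their production of these chemokines, and lymphocytes enter from the blood across high endothelial venules, whose surface carries sulfated sugars that slow passing lymphocytes.

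Expression was given by the authors as FPKM, a unit that corrects fragment counts for transcript length and for the mapped fragments in each library, so that levels of different genes can be set side by side per length. *Slc22a3* had an FPKM of 16.95 and 17.7 in the Ctrl and 9.07 and 9.50 in the cKO libraries (log2 fold change -0.83, limma with Benjamini-Hochberg adjustment, adjusted p = 0.000439). The depth, estimated from the steps between the values of short RNAs, was between 17400000 and 18150000 reads. The tissue label was met by the adipocyte marker *Adipoq*, with an FPKM of 966 to 1527 in the 4 libraries.

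All 10 genes were detected in every library. Averaged over the 4 libraries and in FPKM, *Ccl21a* was the highest with 248, followed by *Ccl19* with 96.7, *Ltb* with 64.3, *Cxcl13* with 47.4, *Glycam1* with 41.2, *Fcer2a* with 31.4, *Ccr7* with 22.8, *Cxcr5* with 12.2, *Cr2* with 7.53 and *Chst4* with 1.25. The ranges of neighbours in this order overlapped, except that all values of *Ccl21a* lay above those of *Ccl19*, all values of *Ccr7* above those of *Cxcr5*, and all values of *Cr2* above those of *Chst4*. The chemokines of the T cell zone thus stood at the top, and the receptors and the B cell surface proteins lay lower.

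**Figure D1:**
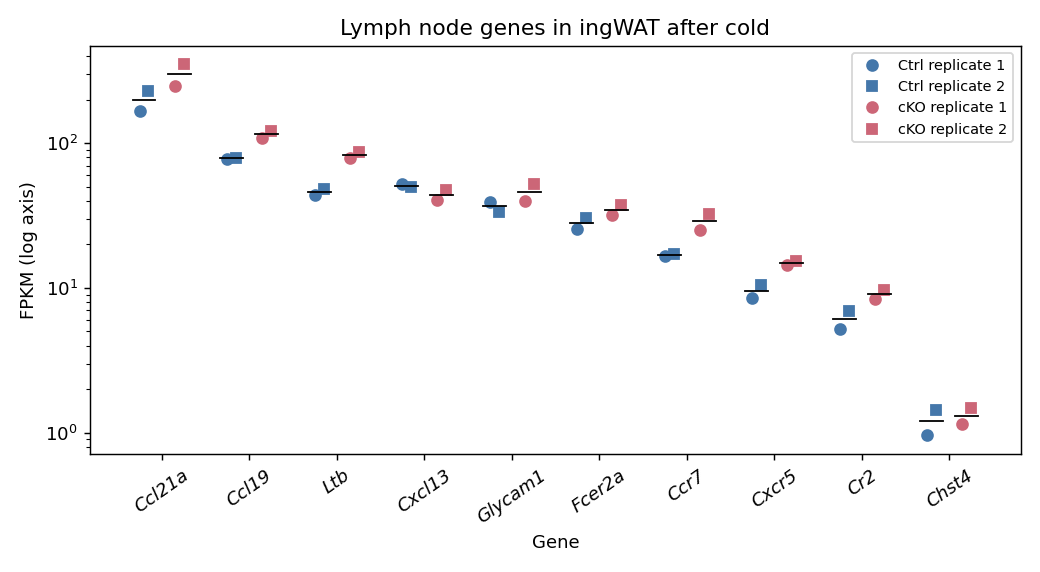
FPKM of the 10 genes on a log axis, ordered by their mean level, with 1 point for each library and a black line at the mean of the 2 libraries of a genotype. The cKO points lie above both Ctrl points for 8 genes, below them for *Cxcl13*, and among them for *Chst4*.

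For the comparison of cKO with Ctrl, limma was run on log2(FPKM + 1) for the 12658 genes whose FPKM averaged 1 or more, and a gene was called at an adjusted p under 0.05. Of the 10 genes, 5 rose in cKO ingWAT, *Ltb*, *Ccr7*, *Cxcr5*, *Ccl19* and *Cr2*, by log2 fold changes between 0.51 and 0.82. None fell at this threshold (limma, 1 lower at an unadjusted p under 0.05, *Cxcl13*). Over all genes tested 12.0% were called higher and 13.8% lower, together 25.8%. Both cKO libraries lay above both Ctrl libraries for 8 of the 10 genes, against 31.9% of all genes tested. The 10 genes had a median log2 fold change of 0.52, against -0.00602 for all genes tested. When Ctrl replicate 1 was left out, 2 of the 10 genes were called (*Ccl19* and *Ltb*), and without a filter on the mean FPKM the same 2 genes were called. Calls over all genes were also fewer in both of these fits, with 1762 of 19030 genes called without the filter. In these bulk samples more cells of a type and more RNA in each cell cannot be told apart.

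**Figure D2:**
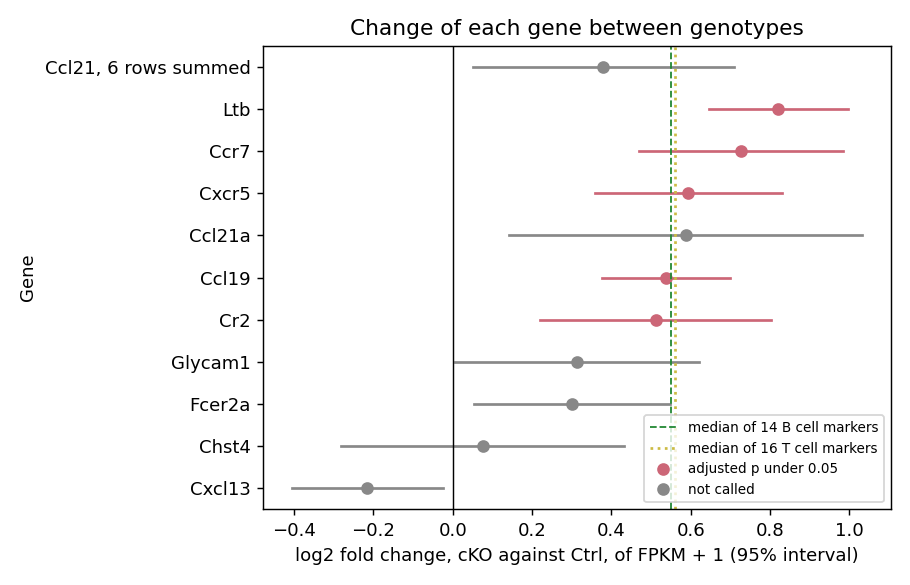
Log2 fold change of each gene in cKO against Ctrl ingWAT on the log2(FPKM + 1) scale, with its 95% interval from limma. Points in red were called, and they lie between 0.51 and 0.82. The dashed and dotted lines are the median changes of 14 B cell markers and 16 T cell markers, at 0.55 and 0.56, and the top row is the sum of 6 table rows for CCL21.

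Among the genes of the T cell zone, both ligands of CCR7 and the receptor itself were higher in both cKO libraries. *Ccl19* (Entrez gene 24047, chr4:42754525-42756365, mm10), made by fibroblastic reticular cells, had an FPKM of 78.2 and 79.0 in the Ctrl and of 108 and 121 in the cKO libraries. The groups did not overlap, and the Ctrl libraries lay within 1 FPKM of each other. *Ccl19* rose by 0.54 on the log2 scale (standard error 0.068, 95% interval 0.38 to 0.70, limma, adjusted p = 0.00206). Of the 914 stretches of 50 bases, the length of a read, in its annotated transcripts, 475 (52%) also occur in *Ccl19* pseudogenes or related gene models, of which 0 are listed in the table, so its reads could have been shared with sequences not analysed here.

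*Ccr7* (Entrez gene 12775, chr11:99144199-99155077), the receptor that guides naive T cells and mature dendritic cells to the T cell zone, had an FPKM of 16.6 and 17.1 in the Ctrl and 25.2 and 32.3 in the cKO libraries. Both cKO values were above both Ctrl values, and the cKO libraries were the more spread. *Ccr7* rose by 0.73 on the log2 scale (standard error 0.109, limma, adjusted p = 0.00377), and the call was lost without Ctrl replicate 1 (adjusted p = 0.0712 with limma). None of its 1929 stretches of 50 bases occurred in another gene.

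*Ccl21a* (Entrez gene 18829, chr4:42772860-42773991) encodes the chemokine of high endothelial venules and reticular cells that binds CCR7, and lies in a cluster of near-identical copies. Of the 821 stretches of 50 bases in its transcript, 588 (71.6%) also occur in *Ccl21b*, *Gm10591*, *Gm13304* or *Gm21541*. The annotated transcript of *Gm21541* differed from that of *Ccl21a* at 6 of 870 bases, 2 of them in the coding part, T84A and C194T, where positions are counted from the A of the start codon and the base of *Ccl21a* is given first. The same 2 coding differences separate *Ccl21a* from *Gm13304*, *Ccl21b* and *Gm10591*. The stretch around position 194 is shown because a read can be told apart only where it covers such a base. It spans the join of exons 2 and 3 (mm10, read from the genome along the annotated exons, 5′ to 3′ on the coding strand, chr4:42773513-42773667 on the minus strand for *Ccl21a* and chr4:41903936-41904090 on the plus strand for *Gm21541*), and the capital marks position 194.
Ccl21a: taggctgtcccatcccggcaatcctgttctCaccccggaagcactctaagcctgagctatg
Gm21541: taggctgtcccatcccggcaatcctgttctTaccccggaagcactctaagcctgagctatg

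The row for *Ccl21a* had an FPKM of 166 and 229 in the Ctrl and 248 and 349 in the cKO libraries. The cKO values lay above the Ctrl values, but 248 and 229 were close, and each genotype was widely spread. The log2 fold change was 0.59 (standard error 0.188, 95% interval 0.14 to 1.03) and was not called (limma, adjusted p = 0.0596), although it was without cKO replicate 1 (log2 fold change 0.84, adjusted p = 0.042 with limma). The low value of Ctrl replicate 1 went together with a row for another copy, *Gm1987*, which had an FPKM of 54.0 in that library and was listed at 0 in the other 3.

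The remaining copies were low. *Ccl21c* and *Gm21541* had the same values, 1.35 and 2.76 in the Ctrl and 4.3 and 0 in the cKO libraries, and *Gm13304* and *Gm10591* both had 2.58 and 2.92 in the Ctrl and 1.27 and 6.20 in the cKO libraries. Rows with equal values in all 4 libraries cannot be read as separate measurements. Because reads may have been divided between copies, the 6 rows described as C-C motif chemokine 21 were also summed, a step chosen after the values were seen. The sum was 228 and 241 in the Ctrl and 259 and 362 in the cKO libraries, so that the Ctrl libraries came close together. *Ccl21a* held 72.9% of the sum in Ctrl replicate 1 and 95.3% to 96.6% in the other libraries. The log2 fold change of the sum was 0.38 (standard error 0.141, 95% interval 0.05 to 0.71), below that of the single row, and was not called (limma, adjusted p = 0.0888).

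**Figure D3:**
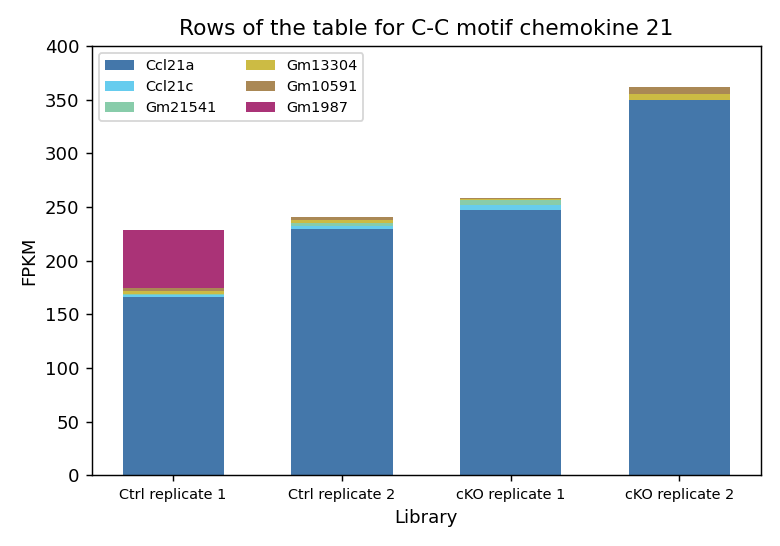
Stacked FPKM of the 6 rows of the table described as C-C motif chemokine 21 in each of the 4 libraries. *Ccl21a* makes up nearly the whole bar except in Ctrl replicate 1, where *Gm1987* adds 54.0, and the bars reach 228, 241, 259 and 362.

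In the axis that places B cells in follicles, the receptor rose and the ligand did not. *Cxcr5* (Entrez gene 12145, chr9:44511787-44526444), carried by B cells and follicular helper T cells, had an FPKM of 8.56 and 10.5 in the Ctrl and 14.3 and 15.4 in the cKO libraries. The groups did not overlap. *Cxcr5* rose by 0.59 on the log2 scale (standard error 0.0998, limma, adjusted p = 0.00595), a call that was lost without Ctrl replicate 1 (log2 fold change 0.46, adjusted p = 0.061 with limma). Its exons overlap those of *Bcl9l* on the opposite strand, and with no strand stated for the counting, reads of the overlap cannot be assigned.

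*Cxcl13* (Entrez gene 55985, chr5:95956939-95961068), made by follicular stromal cells including follicular dendritic cells, had an FPKM of 52.0 and 49.8 in the Ctrl and 40.4 and 47.3 in the cKO libraries. It was the only one of the 10 genes with both cKO values below both Ctrl values, although 47.3 and 49.8 were close. The log2 fold change was -0.21 (standard error 0.081, 95% interval -0.41 to -0.02), and it was not called (limma, adjusted p = 0.0959). It was called without cKO replicate 2 (log2 fold change -0.33, adjusted p = 0.0334 with limma). The interval of *Cxcl13* lay wholly below that of *Cxcr5* (0.36 to 0.83). The ratio of *Cxcl13* to *Cxcr5* was 6.08 and 4.72 in the Ctrl and 2.83 and 3.06 in the cKO libraries, and the ratio of *Cxcl13* to *Ccl19* was 0.666 and 0.630 in the Ctrl and 0.374 and 0.390 in the cKO libraries. Both ratios, chosen after the values were seen, were lower in both cKO libraries, with log2 differences of -0.86 and -0.76. The exact two-sided permutation test of 2 against 2 libraries gave p = 0.333 for each, the smallest it can give.

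Of the other chemokines and receptors of the list, 1 of 4 tested passed, against 25.8% of all genes tested. This was *Cxcr4*, the receptor of CXCL12, with an FPKM of 8.54 and 10.4 in the Ctrl and 12.5 and 13.7 in the cKO libraries (log2 fold change 0.43, limma, adjusted p = 0.0194). Its ligand *Cxcl12*, a stromal chemokine, had 99.9 and 103 in the Ctrl and 96.1 and 118 in the cKO libraries and was not called (limma, adjusted p = 0.64).

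*Ltb* (Entrez gene 16994, chr17:35194507-35196305), which encodes lymphotoxin β, the membrane anchor of the lymphotoxin carried by B and T cells, had the largest fold change of the 10 genes. Its FPKM was 43.9 and 48.6 in the Ctrl and 78.5 and 86.3 in the cKO libraries. The groups lay far apart compared with the difference within either. *Ltb* rose by 0.82 on the log2 scale (standard error 0.074, limma, adjusted p = 0.000684), and it remained called when any library was left out and under every other setting tried.

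The promoter of *Ltb* was the only one among the 8 genes with a RefSeq promoter window (GRCm38, 250 bases before to 50 after the start, searched on both strands) to hold the kappaB consensus, the motif of NF-κB factors. The consensus was present in 8.46% of all 32851 such windows. It lay at positions -87 to -78 from the start site and is shown in capitals in a stretch of 110 bases (chr17:35194370-35194479, plus strand), because lymphotoxin signalling itself runs through NF-κB. A match of letters is not evidence of binding.
Ltb promoter: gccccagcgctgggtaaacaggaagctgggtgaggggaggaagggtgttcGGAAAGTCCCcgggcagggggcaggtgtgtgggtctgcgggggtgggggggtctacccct

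The median change of 12 other genes of the lymphotoxin pathway was 0.24 on the log2 scale. Of the 12, 4 rose, against 12.0% of all genes tested. These were *Tnfsf11*, the ligand RANKL, with an FPKM of 0.66 and 0.67 in the Ctrl and 1.30 and 1.80 in the cKO libraries (log2 fold change 0.61), the NF-κB subunits *Nfkb2* (0.44) and *Relb* (0.42), which act downstream of the lymphotoxin β receptor, and the partner ligand *Lta* (0.39), with limma adjusted p between 0.00268 and 0.0236. *Tnfsf11* averaged under 1 FPKM in the Ctrl libraries and passed the filter only through the cKO libraries, where it was high. The receptor *Ltbr* had 39.3 and 35.2 in the Ctrl and 32.1 and 31.8 in the cKO libraries and was not called (log2 fold change -0.21, limma, adjusted p = 0.0609). Without Ctrl replicate 1, and likewise without Ctrl replicate 2, 1 of the 12 was called, and without cKO replicate 2, 2 were. Without a filter on the mean FPKM, 1 was called. With a mean FPKM of at least 5, where 6 of the 12 were tested, *Nfkb2* and *Relb* were called higher, and *Ltbr* (limma, adjusted p = 0.0385) and the TNF receptor *Tnfrsf1a* (log2 fold change -0.19, adjusted p = 0.0408) were called lower.

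Of the 2 B cell surface proteins of the set, *Cr2* was called and *Fcer2a* was not, and the difference between their changes was not tested. *Cr2* (Entrez gene 12902, chr1:195136811-195176880), the complement receptor CD21 of B cells and follicular dendritic cells, had an FPKM of 5.23 and 6.88 in the Ctrl and 8.39 and 9.63 in the cKO libraries. *Cr2* rose by 0.51 on the log2 scale (standard error 0.124, limma, adjusted p = 0.0229). The call was lost when any 1 library other than Ctrl replicate 2 was left out. The log2 fold change was 0.34 without Ctrl replicate 1 and 0.68 without Ctrl replicate 2. It was 0.60 without cKO replicate 1 and 0.42 without cKO replicate 2.

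*Fcer2a* (Entrez gene 14128, chr8:3680280-3694174), the low-affinity IgE receptor CD23 of mature follicular B cells, had an FPKM of 25.5 and 30.6 in the Ctrl and 32.0 and 37.5 in the cKO libraries. The groups did not overlap, with the values 30.6 and 32.0 close together. The log2 fold change of 0.30 (standard error 0.105, 95% interval 0.05 to 0.55) was not called (limma, adjusted p = 0.0754).

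Of 8 other genes of follicles and stroma that were tested, 2 rose and 1 fell, and their median log2 fold change was 0.10. Of all genes tested, 12.0% were called higher and 13.8% lower. *Bst1*, a surface enzyme of bone marrow and lymphoid stroma, rose by a log2 fold change of 0.57, *Icam1*, an adhesion molecule, by 0.32, and *Fcgr2b*, the inhibitory Fc receptor, had a log2 fold change of -0.23 (limma, adjusted p between 0.00235 and 0.0384). The follicular dendritic cell gene *Mfge8*, which other cells express too, had an FPKM of 161 and 163 in the Ctrl and 169 and 175 in the cKO libraries and was not called (limma, adjusted p = 0.31).

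Neither gene of the high endothelial venule was called. *Glycam1* (Entrez gene 14663, chr15:103562759-103565081), a mucin-like glycoprotein made by these venules, had an FPKM of 39.5 and 33.6 in the Ctrl and 39.7 and 52.2 in the cKO libraries. Its highest Ctrl and lowest cKO values nearly coincided. The log2 fold change was 0.31 (standard error 0.130, 95% interval 0.01 to 0.62, limma, adjusted p = 0.123), and it was called without cKO replicate 1 (log2 fold change 0.51, adjusted p = 0.0371 with limma).

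*Chst4* (Entrez gene 26887, chr8:110029075-110039401), the sulfotransferase that sulfates the sugars of these venules, had an FPKM of 0.96 and 1.43 in the Ctrl and 1.14 and 1.47 in the cKO libraries. The genotypes overlapped, at an estimated 33 and 49 reads in the Ctrl and 38 and 49 reads in the cKO libraries. The log2 fold change was 0.08 (standard error 0.151, 95% interval -0.28 to 0.43, limma, adjusted p = 0.75), so neither a rise nor a fall within that interval was excluded.

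Of 7 other genes that build or carry the venule ligands, 1 was called, against 25.8% of all genes tested. *Cd34*, a sugar-bearing surface protein that fat progenitors and other endothelium also express, had an FPKM of 96.1 and 82.3 in the Ctrl and 42.7 and 42.4 in the cKO libraries (log2 fold change -1.05, limma, adjusted p = 0.000389). The glycan enzymes *Chst2*, *Fut7*, *Fut4*, *Gcnt1* and *B3gnt3* had log2 fold changes between -0.02 and 0.19 and were not called. The addressin *Madcam1*, with 0.70 and 1.16 in the Ctrl and 0.66 and 1.39 in the cKO libraries, was below the filter. Of 9 tested genes of lymphocyte entry and exit, 4 rose, *S1pr4* (log2 fold change 0.45), *Itgal* (0.45), *Sgpl1* (0.34) and *Itgb7* (0.31), against 12.0% of all genes (limma, adjusted p between 0.00516 and 0.0404).

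General markers of lymphocytes were higher in cKO ingWAT. Over all genes tested 12.0% were called higher. Of 14 B cell markers, 14 rose, by a median of 0.55 on the log2 scale, among them *Spib* (0.72), *Cd79a* (0.72), *Cd79b* (0.69) and *Fcmr* (0.65). Their summed FPKM was 341 and 377 in the Ctrl and 529 and 588 in the cKO libraries. Of 16 T cell markers, 12 rose, by a median of 0.56, among them *Cd3d* (0.77), *Cd3g* (0.66), *Lck* (0.61) and *Cd8b1* (0.61). Their summed FPKM was 152 and 161 in the Ctrl and 210 and 277 in the cKO libraries, and no listed marker of either cell type was at 0. Without Ctrl replicate 1, 5 B cell markers were called and no T cell marker (limma, with 11 of 16 at an unadjusted p under 0.05), without Ctrl replicate 2, 12 and 3 were, and without cKO replicate 2, 12 and 7 were. Without a filter on the mean FPKM 8 B cell markers and no T cell marker were called. Of the latter, 12 had an unadjusted p under 0.05 with limma. Of all 19030 genes, 667 were called higher without the filter. Calls over all genes were also fewer in each of these fits than with the filter and all libraries. The part of these cells in the changes of the 10 genes was not tested.

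The 10 genes were also set against the geometric mean FPKM of the 14 B cell markers in each library, which was 18.7 and 20.6 in the Ctrl and 27.9 and 30.7 in the cKO libraries. These ratios were chosen after the values were seen. For *Ccl19*, *Ccl21a*, *Cxcr5* and *Cr2* the ratios of the genotypes overlapped, with log2 differences between -0.03 and 0.07. The sum of the 6 CCL21 rows had a log2 difference of -0.19 against the B cell markers, where the genotypes overlapped, and of -0.24 against the geometric mean of the T cell markers, where both cKO libraries were lower. For *Ltb* the ratio was 2.35 in both Ctrl and 2.81 in both cKO libraries, a log2 difference of 0.26.

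*Cxcl13* stood apart from the others on this scale. Its ratio to the B cell markers was 2.78 and 2.41 in the Ctrl and 1.45 and 1.54 in the cKO libraries, a log2 difference of -0.80. *Fcer2a* was lower as well, with ratios of 1.36 and 1.48 in the Ctrl and 1.15 and 1.22 in the cKO libraries and a log2 difference of -0.26, as was *Chst4* with -0.43. For *Glycam1* the ratios overlapped (log2 difference -0.25), and *Ccr7* was slightly higher in both cKO libraries (0.19). The exact permutation test gave p = 0.333 wherever the groups were apart, the smallest that 2 against 2 libraries allow. Against the geometric mean of the T cell markers, the ratios were again higher in both cKO libraries for *Ltb* (log2 difference 0.21) and *Ccr7* (0.13) and lower in both for *Cxcl13* (-0.85), *Chst4* (-0.48), *Fcer2a* (-0.32) and *Glycam1* (-0.31).

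**Figure D4:**
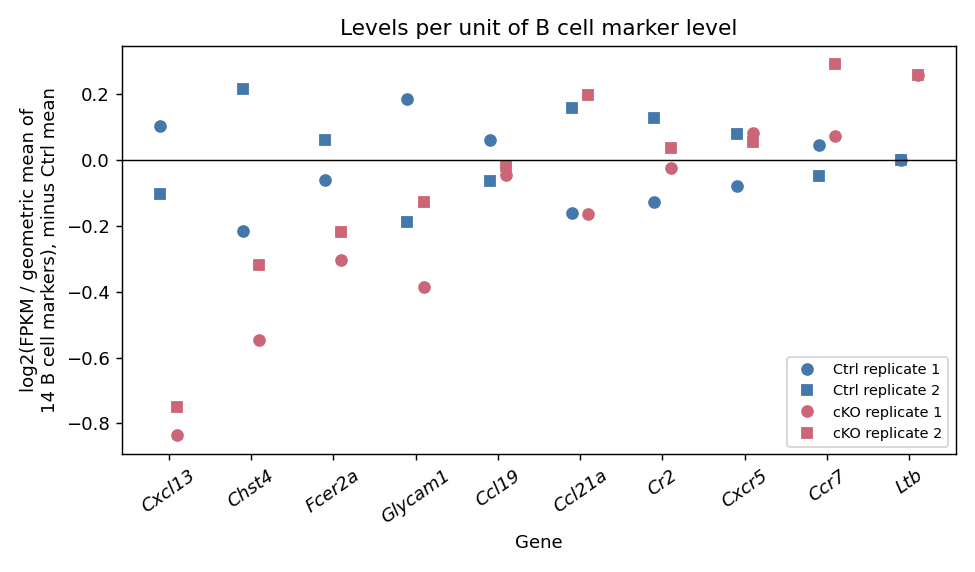
Log2 of the FPKM of each gene divided by the geometric mean FPKM of 14 B cell markers in the same library, minus the mean of the 2 Ctrl libraries, with 1 point for each library. The cKO points lie near 0 for *Ccl19*, *Ccl21a*, *Cr2* and *Cxcr5*, at 0.26 for *Ltb*, where the points of a genotype coincide, and lowest for *Cxcl13*, on average at -0.80.

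Summed over the 10 genes the FPKM was 437 and 507 in the Ctrl and 595 and 753 in the cKO libraries. The log2 difference was 0.51, and the exact permutation test gave p = 0.333, the smallest possible. *Ccl21a* was the largest part of this sum, and with the 6 CCL21 rows in its place the difference was 0.42.

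Markers of other tissues also differed between the genotypes. Of 8 skeletal muscle markers tested, 8 were lower in cKO ingWAT, led by *Ckm* (log2 fold change -7.51), *Tnnt3* (-7.27), *Acta1* (-7.24) and *Tnnc2* (-7.08), with a summed FPKM of 2078 and 1382 in the Ctrl and 9.49 and 7.10 in the cKO libraries. This was 0.424% and 0.285% of all FPKM in the Ctrl libraries. Adipocyte markers were lower for 5 of 8 (*Lep*, -1.40), fibroblast markers for 5 of 6 (*Pi16*, -1.94) and blood endothelial markers for 4 of 7 (*Tek*, -0.60). Keratinocyte markers were lower for 1 of 2 (*Krtdap*, -1.54). Of 3 lymphatic endothelial markers tested, *Lyve1* was lower (-0.36), whereas *Mmrn1* (0.26) and *Flt4* (0.12) were not called. Of all genes tested, 13.8% were called lower. The muscle markers *Ckm*, *Tnnt3*, *Tnnc2*, *Pvalb*, *Myh4* and *Mb*, and *Krtdap*, averaged under 1 FPKM in the cKO libraries. These genes passed the filter only through the Ctrl libraries, where they were high. Differences in the cells that the depot held and differences of genotype cannot be told apart in 2 against 2 libraries, and the part of these other cells in the changes of the 10 genes was not tested.

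**Figure D5:**
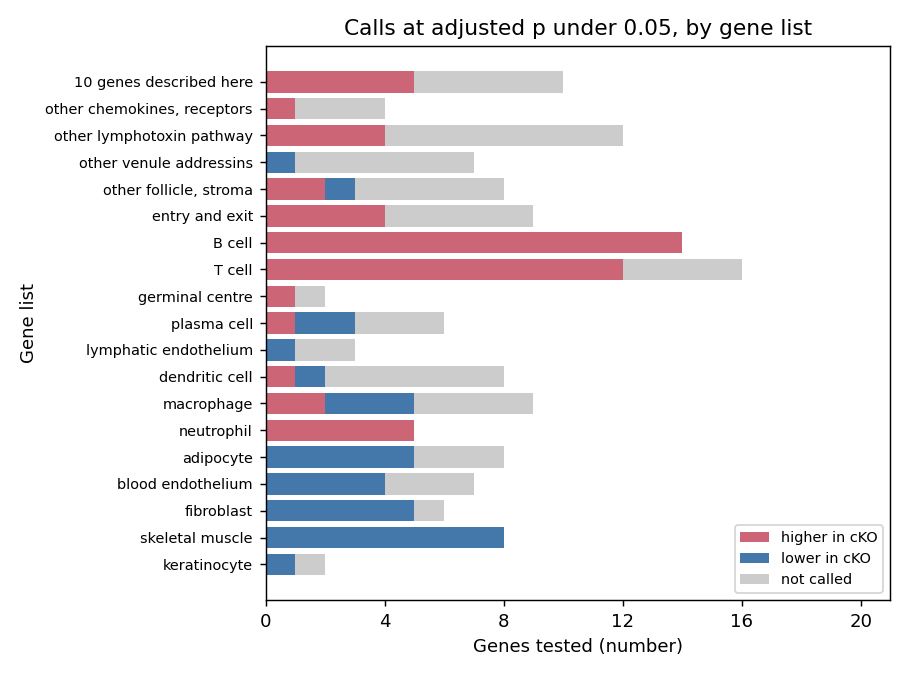
Number of genes tested in each list, split into those called higher in cKO ingWAT, called lower, and not called (limma, adjusted p under 0.05). Lists marked as other leave out the 10 genes described here. The B cell bar is called higher throughout and the skeletal muscle bar lower throughout, whereas 5 of the 10 genes described here were called, all higher.

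Genes of the germinal centre, where activated B cells are selected, were mostly low. Of 7 listed, 5 were below the filter. Of the 2 tested, *Bcl6*, a repressor that germinal centre B cells use and adipocytes and other cells also express, rose, with 10.9 and 13.7 in the Ctrl and 39.6 and 31.1 in the cKO libraries (log2 fold change 1.45, limma, adjusted p = 0.000724). *S1pr2* was not called (log2 fold change -0.07, limma, adjusted p = 0.62). The follicular dendritic cell gene *Coch* was also low, with an FPKM of 0.46 and 0.36 in the Ctrl and 0.59 and 1.11 in the cKO libraries.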

How the data were processed

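Expression was deposited by the authors as FPKM for each gene in 2 Ctrl and 2 cKO libraries, from poly-A-selected RNA read as single ends of 50 bases, and no scaling between libraries is stated. The submitters' processing notes name HISAT2 2.0.4, RSEM 1.2.12 and mm10. The values are rounded to 2 decimals. Read counts are not given, so no count test was used. The steps between the FPKM of 303 short RNA genes gave the depth, and 86.9% to 92.3% of the values used came out whole within 0.1 read. The procedure erred by at most 1.82% in 3 simulated libraries. Genes whose FPKM averaged 1 or more were compared on log2(FPKM + 1), which understates the change of low genes, with limma 3.58.1 in R 4.3.3 (eBayes with a trend, Benjamini-Hochberg adjustment over 12658 genes). On simulated data for this comparison, over 12658 genes, it called 200 of 200 changed genes and 4 unchanged ones. Every simulated gene had the same spread, so these counts do not give the error rate for real genes, whose spread differs. All 10 genes described here had an absolute log2 fold change under 1, and recovery at their sizes was not tested separately. Single sums and ratios were compared with exact two-sided permutation tests.

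The members and the gene lists were chosen with earlier results of these data known. A few listed genes are not reported here. Every member is named, with up to 4 called genes of each other list that had the largest absolute log2 fold change. A few uncalled or low genes (*Cxcl12*, *Ltbr*, *Tnfrsf1a*, *Mfge8*, *Madcam1*, *Coch*, *S1pr2*, the glycan enzymes) were named after their values were seen. So were *Flt4*, *Mmrn1* and *Ly6g*. The muscle genes *Pvalb*, *Myh4* and *Mb*, called beyond the first 4 of their list, were named only for the filter. Coordinates, shared stretches and exon positions come from GENCODE annotation of mm10, and promoters from RefSeq. Across all genes tested, the deviations of same-numbered libraries had a correlation of 0.0148, which does not show whether the numbers pair the libraries for the 10 genes. The geometric mean of the B cell markers was higher in replicate 2 than in replicate 1 of both genotypes (18.7 and 20.6 in the Ctrl, 27.9 and 30.7 in the cKO libraries).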

Additional observations from a re-analysis of the deposited data

How the results depend on the processing

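With 2 libraries a group, calls depended on each library. Leaving out 1 library (the lone library is then assumed to vary like the others) gave 787 to 2340 called genes in all against 3269, 2 to 6 called members against 5, a median member log2 fold change of 0.38 to 0.61, 30 to 80 called genes of the other lists against 84, and a summed member difference of 0.34 to 0.68. The fewest calls of members came without Ctrl replicate 1. Without a filter, where 19030 genes were tested, 1762 genes, 2 members and 41 listed genes were called. The counts of listed genes, here and above, include the called members, because the other lists hold the members too. *Chst4* changed sign without Ctrl replicate 1 (-0.08) and without cKO replicate 2 (-0.03), and ranged up to 0.23 without Ctrl replicate 2. With the replicate number as a block, 3383 genes and 7 members were called, with *Ccl21a* (limma, adjusted p = 0.00139) and *Fcer2a* (0.00995) added; the numbers share no stated origin. With a mean FPKM of at least 5 the same 2 genes were added (0.0204 and 0.0362). *Ccl19* and *Ltb* were called under all 12 alternatives, *Ccr7* and *Cxcr5* under 10 and *Cr2* under 8. Over the alternatives the log2 fold change of *Cxcl13* ranged from -0.33 to -0.10. The cause of these shifts was not tested. An estimated 33 to 49 reads lay behind each value of *Chst4*.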

Other observations

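The neutrophil markers tested were higher in cKO ingWAT, whereas lists of other myeloid and plasma cells were mixed. Over all genes tested 12.0% were called higher and 13.8% lower. Of 5 neutrophil markers tested, 5 rose, led by *S100a8* with an FPKM of 3.49 and 3.26 in the Ctrl and 9.52 and 10.1 in the cKO libraries (log2 fold change 1.30, limma, adjusted p = 0.000189), *S100a9* (0.94), *Csf3r* (0.92) and *Retnlg* (0.64). *Retnlg* averaged under 1 FPKM in the Ctrl libraries and passed the filter only through the cKO libraries, where it was high. The listed neutrophil marker *Ly6g* was below the filter, with an FPKM of 0.06 and 0 in the Ctrl and 0.06 and 0 in the cKO libraries. Of 9 macrophage markers, 2 rose, *Fcgr1* (1.18) and *Cd68* (0.73), and 3 fell, among them *Mrc1* (-0.72) and *C1qa* (-0.38). Of 8 dendritic cell markers, *Itgax* rose (0.47) and *Cd209a* fell (-0.75). The plasma cell genes were divided as well, with *Mzb1* higher (0.48) and *Xbp1* (-0.52) and *Jchain* (-0.41) lower, of 6 tested. In bulk tissue these changes cannot be assigned to plasma cells.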
